A study of Gallus gallus with 9 samples.

Results

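RNA of whole embryonic chick heart, measured on 1 array, was compared with RNA of circulating red blood cells (RBCs), measured on 4 arrays. The 5 arrays were taken by their labels from the 9 arrays of the series, and no expression value was used to choose them. Blood had been drawn from the heart with capillaries at embryonic day 4 (E4) or 6 (E6), and a density gradient had parted the heavier RBCs from a lighter fraction of non-red cells (nRBCs, 4 arrays that are not compared here). RBCs were represented by 2 arrays per stage, each hybridized with RNA of a separate pool of embryos. The heart served the study as a negative control for heart tissue in the blood samples, was labelled E6 whole heart by its title and source, and was headed E4 in the deposited signal table. E6 is used here. No strain, treatment or genetic change was named for any group. A whole heart can also hold blood in its chambers, so the heart array may be a mixture of tissue and blood, which was not tested. In bulk RNA fewer cells of a type cannot be told apart from less RNA per cell.

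The embryonic heart beats from early on, and its looped tube becomes a heart of separate chambers. Its wall holds contracting muscle, an inner endocardium, the matrix-rich mesenchyme of the cushions that will form valves, and an outer epicardium. Primitive red cells of birds keep their nuclei, fill with embryonic hemoglobins, and import iron and make heme for them in mitochondria. Their membrane is carried by a spectrin skeleton that ankyrin and protein 4.2 tie to the anion exchanger band 3.

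The array measured 38439 chicken probe sets. For each of them the deposited table gives the brightness (MAS5 signal) and a detection call, Present, Marginal or Absent, on every array. Levels are given as log2 signal after quantile normalization, and a difference is the heart minus the mean of the 4 RBC arrays, where 1 unit is a doubling. Since the heart has no replicate, the error of its values could not be estimated and no test was made of any difference. With 1 array against 4, the smallest one-sided p of an exact permutation test would be 0.2. A probe set was called higher in heart where the heart was Present, lay above every RBC array and exceeded their mean by 2 or more (4-fold). It was called lower where all 4 RBC arrays were Present, the heart lay below each of them and the difference was of the same size. Where the dim side had no Present call, its values were raised to the lowest Present signal of their array, and the fold is given as "at least". This is a convention of the measurement and not a strict bound for each probe set. Median differences of gene lists are of measured values without this raising, and so rest in part on Absent values. Where 1 to 3 RBC arrays were Present, the fold is the measured one and rests in part on Absent values, and the number of Present arrays is given.

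Of all probe sets, 2872 were called higher in heart (7.47%) and 734 lower (1.91%). The split was 3662 and 422 without normalization, and 3090 and 2347 with no Present call needed. It thus depends on the rule, which asks for Present calls on all 4 RBC arrays for a lower call and on 1 heart array for a higher call. With 1 probe set for each of the 13009 genes with a symbol, 1430 genes were higher (11.0%) and 406 lower (3.12%). The 11.0% and 3.12% are the background against which the counts of gene lists below are read. Both shares count every gene, also those that could not be called for want of Present calls. On none of the 5 arrays were 20234 probe sets Present. Lists rich in Present genes had more members open to a call, and no background of callable genes was computed. The higher calls reached larger sizes, with 164 genes past 64-fold and 35 past 256-fold, against 15 and 0 of the lower genes. Against a detection limit stood 974 of the 1430 higher genes and 65 of the 406 lower genes. Present on the heart and on no RBC array were 4645 probe sets, and 217 were Present on all 4 RBC arrays and not on the heart.

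**Figure D1:**
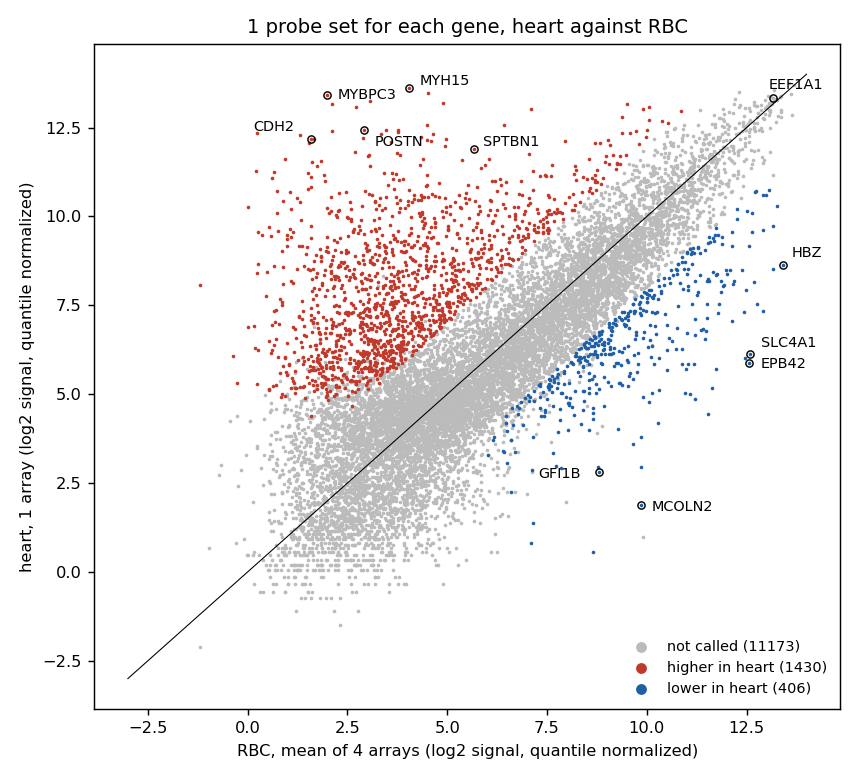
Each point is 1 gene, with the mean log2 signal of 4 RBC arrays on the x axis and the log2 signal of the 1 heart array on the y axis. Red points (1430) were called higher in heart and blue points (406) lower, and the line marks equal signals. The red cloud spreads up from RBC values near the detection limits, while the blue points lie at RBC means between 6.03 and 13.40.

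The arrays differed in ways that ran with the groups, and the number of low signals ran with the replicate number of the RBC arrays. Present calls covered 40.5% of probe sets on the heart and 22.4% to 29.4% on the RBC arrays, a range that did not reach the heart. The GAPDH control probe sets gave a 3'/5' signal ratio of 2.08 on the heart and of 9.44 to 11.1 on the RBC arrays. For the actin controls the groups lay closer, at 3.38 on the heart and 4.39 to 5.75 on the RBC arrays. Signals under 1 numbered 2172 and 1880 on replicate 1 of E4 and E6 RBCs, 214 and 188 on replicate 2, and 1167 on the heart. Correlations over all probe sets were 0.66 to 0.72 between heart and RBC arrays and 0.82 to 0.86 among RBC arrays. The median difference was -0.13 over genes. The part of these measures in the differences below was not tested.

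The contractile apparatus held the largest differences of the comparison. Of 48 measured genes of the sarcomere and cytoskeleton of heart muscle, 36 were higher in heart (75.0%), 1 was lower and 11 were not called, and the median difference was 6.43. Cardiac myosin-binding protein C, MYBPC3, which steadies the thick filament, read 3.05 and 0.78 on the E4 RBC arrays and 2.28 and 1.86 on the E6 RBC arrays, all Absent, against 13.41 on the heart. That is at least 1586-fold, the largest of all genes when values are raised to the detection limits, while the measured difference was larger for CSRP3 (12.12) than for MYBPC3 (11.42). TNNC1, the calcium-binding subunit of cardiac troponin, read 3.41, 2.82, 0.68 and 1.51 on the RBC arrays in the same order and 13.15 on the heart, at least 1202-fold. ACTC1, cardiac actin, read 3.82, 4.78, 1.83 and 1.79 on RBCs and 13.23 on the heart, at least 842-fold. No RBC array came within 8 log2 units of the heart for any of these 3 genes.

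MYH15, the ventricular myosin heavy chain of birds, stood at 3.43, 3.79, 4.43 and 4.48 on RBCs and at 13.60 on the heart, at least 761-fold. For MYL3, an essential myosin light chain, the RBC arrays read 2.15, 2.75, 0.19 and 0.19 and the heart 12.30, at least 705-fold. The LIM-domain protein CSRP3 of the Z-disc read -0.66, -1.69, 0.36 and 2.95 on RBCs and 12.36 on the heart, at least 689-fold. TNNT2, the tropomyosin-binding subunit of troponin, was Present on 1 of the 4 RBC arrays and read 5.12, 5.45, 3.62 and 3.84 there against 13.47 on the heart, a measured 499-fold. FHL2, another LIM-domain protein of cardiac muscle, was higher by at least 830-fold, MYH7 by at least 456-fold, the ventricular light chain MYL2 by at least 227-fold, actinin ACTN2 by 201-fold (Present on 2 RBC arrays) and the giant filament protein titin (TTN, the chosen of its 19 probe sets) by at least 152-fold.

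The 11 genes without a call included smooth muscle actin ACTA2, desmin (DES) and the chaperone CRYAB, which were Absent on all 5 arrays, and the tropomyosin TPM2, which read 8.41 on the heart and 7.72 ± 0.26 on RBCs (SD, n = 4) although TPM1 was higher by at least 77.9-fold. MYL1, an alkali light chain, was measured by 3 probe sets that ran in opposite directions. The chosen set read 4.66 on the heart and 8.93 ± 0.69 on RBCs (SD, n = 4), and the other 2 were higher in heart by 7.93 and 9.78 on the log2 scale. MYL1 was 1 of 5 genes on the array with probe sets called in both directions, so its entry among the lower genes rests on which probe set is read. On RBCs, 39 of the 48 genes had no Present call on any array. The summed signal of the list was 10.67 to 11.08 (log2) on RBC arrays, 12.74 to 13.80 on nRBC arrays and 16.87 on the heart.

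**Figure D2:**
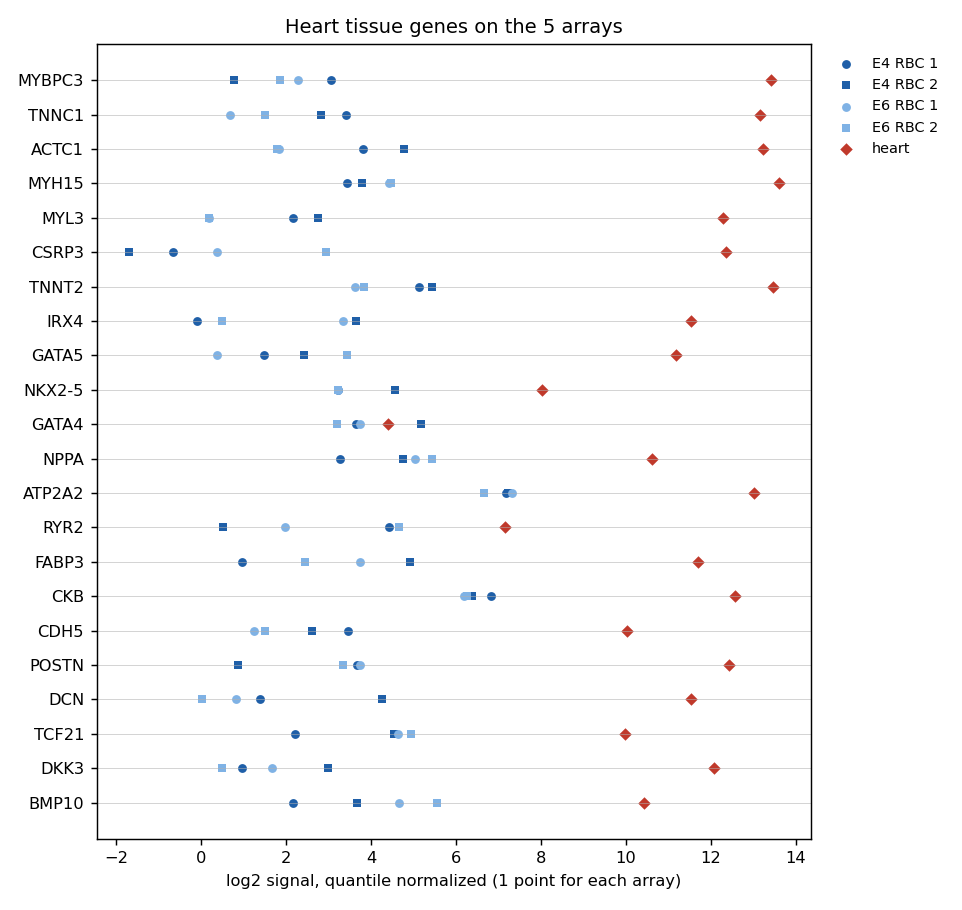
Log2 signals of 22 genes of heart muscle, endocardium, mesenchyme, epicardium and secreted signals, with 1 point for each of the 4 RBC arrays (blue) and the heart (red). The heart lies to the right of every RBC array in all rows except GATA4, which had no Present call on the 5 arrays. The genes were chosen with earlier results of these data known, and the heart lists also hold uncalled members that are not drawn.

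Of 32 measured transcription factors of the heart, 14 were higher (43.8%), NKX2-6 was lower and 17 were not called, with a median difference of 1.36. Present on none of the 5 arrays were 9 of the 32, which could not be called in either direction. IRX4, a homeobox factor of the ventricle, read -0.10, 3.65, 3.34 and 0.50 on RBCs and 11.55 on the heart, at least 344-fold. GATA5, a zinc finger factor of the heart fields and endocardium, read 1.48, 2.42, 0.36 and 3.43 on RBCs and 11.18 on the heart, at least 280-fold. NKX2-5, the early marker of cardiac muscle progenitors, read 3.23, 4.57, 3.22 and 3.22 on RBCs, all Absent, and 8.02 on the heart, at least 21.9-fold. PROX1 (at least 93.8-fold), the muscle methyltransferase SMYD1 (26.2-fold, Present on 1 RBC array), TWIST1 (at least 18.0-fold), TBX5 (at least 13.2-fold) and the coactivator MYOCD (at least 9.66-fold) were also higher. TWIST1 was as bright on nRBCs (7.18 ± 0.62, SD, n = 4) as on the heart (7.04). TBX5 read -0.57 below RBCs on the probe set with the most Present calls, which was not called.

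Among GATA factors, GATA5 and GATA6 were called higher, and GATA4, GATA2 and GATA3 were not called. GATA6, which acts in heart and endoderm, was at 7.95 on the heart and 2.93 ± 0.44 on RBCs (SD, n = 4), at least 30.4-fold. GATA4 read 4.40 on the heart and 3.21 to 5.19 on RBCs, and the hematopoietic GATA2 read 3.52 against 3.71 ± 1.53 (SD, n = 4), with no Present call for either on any of the 5 arrays. Their probe sets were Present on no nRBC array either, so they do not show whether these genes differ. GATA3, a factor of lymphoid and other lineages, read 4.27 on the heart inside its RBC range of 3.77 to 5.29. The erythroid GATA1 was not analysed here. TBX20, HAND1 and NFATC1, known from the developing heart and endocardium, were Absent on all 5 arrays, whereas HAND2 (5.40 against 3.07 ± 0.61, SD, n = 4) passed at no less than 4.87-fold against the limits, though not against the E4 RBC arrays alone, where its difference was 1.91, or with 16 added to the signals (1.22). NKX2-6, a relative of NKX2-5, was Absent on the heart at 3.36 and Present on all 4 RBC arrays at 6.65, 6.39, 6.71 and 7.05, lower in heart by at least 10.1-fold.

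Genes of excitation, calcium cycling and fuel use were next. Of 32 genes of calcium handling, ion channels and conduction, 18 were higher (56.2%), none lower and 14 uncalled, with a median difference of 2.90. The sodium pump subunit ATP1B1 stood at 5.83, 5.72, 0.81 and 1.33 on RBCs and at 11.23 on the heart, at least 126-fold (81.4-fold without E6 RBC replicate 2), with the E4 arrays above the E6 arrays although all were Absent. ATP2A2, the calcium pump of the sarcoplasmic reticulum, was Present on every array and read 7.17, 7.23, 7.31 and 6.65 on RBCs and 13.02 on the heart, 61.0-fold. The natriuretic peptide NPPA, made by atrial and embryonic muscle, read 3.28, 4.75, 5.04 and 5.44 on RBCs and 10.62 on the heart, at least 63.7-fold. The connexin GJA5 (at least 98.7-fold), POPDC3 (at least 111-fold), sarcalumenin SRL (at least 84.4-fold) and the calcium channel subunit CACNA2D1 (at least 27.5-fold) belonged to the same group. Smaller differences were measured for the release channel RYR2 (at least 11.1-fold), phospholamban PLN (at least 4.84-fold) and the store protein CASQ2 (at least 4.80-fold, with a difference of 1.97 and no call without E6 RBC replicate 2). JPH1 and the exchanger SLC8A1 ran the other way without a call, at 7.49 against 8.76 ± 0.14 and 5.0 against 6.41 ± 0.51 (SD, n = 4 each).

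Of 21 genes of muscle energy metabolism 13 were higher (61.9%), with a median of 3.24. FABP3, which carries fatty acids in muscle, read 0.95, 4.91, 3.74 and 2.45 on RBCs and 11.70 on the heart, at least 282-fold. Brain-type creatine kinase CKB, Present on all arrays, read 6.83, 6.39, 6.18 and 6.26 on RBCs and 12.57 on the heart, 71.2-fold. Pyruvate dehydrogenase kinase PDK4 (at least 45.2-fold), the oxygen store myoglobin (MB, at least 32.2-fold), the glucose transporter SLC2A1 (22.7-fold, Present on 2 RBC arrays) and the coactivator PPARGC1A (at least 18.5-fold) followed. Both lactate dehydrogenase subunits were higher than on RBCs, though LDHA was brighter still on nRBCs (12.145 ± 0.29, SD, n = 4) than on the heart. LDHB read 10.67, 11.95, 8.82 and 8.73 on RBCs and 13.07 on the heart (8.15-fold, and 12.7-fold without E4 RBC replicate 2), with the E4 arrays nearest the heart, and against these alone its difference was 1.76 and the call was lost. LDHA read 5.55, 0.93, 5.61 and 5.43 on RBCs and 10.08 on the heart, Present on 3 RBC arrays, which is 51.9-fold with the Absent E4 replicate 2 and 23.4-fold without it. In contrast, 57 genes of the respiratory chain and ATP synthase and 61 ribosomal protein genes held no call in either direction, with medians of 0.14 and -0.16.

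Genes listed for the non-muscle layers of the heart were higher than on RBCs as well. The nRBC arrays carried signal of these lists too, as they did of the sarcomere list. Whether it came from nRBCs or from heart tissue in the blood samples was not tested. Of 46 genes of matrix and cushion mesenchyme, 34 were higher (73.9%), none lower, and the median was 3.95. Their summed log2 signal was 11.77 to 12.83 on RBC arrays, 13.38 to 14.51 on nRBC arrays and 15.89 on the heart. Periostin (POSTN), a matrix protein of the cushions, read 3.68, 0.87, 3.73 and 3.35 on RBCs, Present on 2 arrays, and 12.44 on the heart, 740-fold, or 462-fold without E4 RBC replicate 2. N-cadherin (CDH2), a member of this list, joins cardiac muscle cells and so does not by itself mark a non-muscle layer. It read 1.17, 1.49, 1.67 and 2.01 on RBCs and 12.19 on the heart, at least 681-fold. The proteoglycan decorin (DCN) read 1.38, 4.26, 0.81 and 0.01 on RBCs and 11.54 on the heart, at least 322-fold. COL1A2 (at least 364-fold), the protease MMP2 (at least 316-fold), COL3A1 (270-fold, Present on 1 RBC array), COL5A1 (at least 213-fold), fibronectin FN1 (at least 205-fold), versican VCAN (at least 172-fold) and COL1A1 (at least 68.2-fold) were also higher. The intermediate filament vimentin (VIM) was Present on every array and was not called, at 12.58 on the heart and 10.63, 9.53, 11.89 and 11.71 on RBCs.

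Of 24 genes of endocardium and endothelium 10 were higher (41.7%), TAL1 was lower, and the median was 1.79. The summed log2 signal was 10.28 to 11.21 on RBC arrays and 11.96 on the heart, which lay inside the nRBC range of 11.40 to 12.01. VE-cadherin (CDH5), the junction protein of endothelial cells, read 3.45, 2.61, 1.25 and 1.51 on RBCs and 10.03 on the heart, at least 142-fold. The factors SOX17 (at least 44.8-fold), SOX7 (at least 32.2-fold) and ERG (at least 20.3-fold) and the angiopoietin receptor TEK (at least 14.7-fold) were higher too. The VEGF receptor KDR was called on 1 of 5 probe sets, at 7.21 against 3.73 ± 0.15 (SD, n = 4), and PECAM1 on 2 of 3, the chosen set reading 5.98 against 5.07 ± 0.82 (SD, n = 4) without a call.

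Epicardium was measured by 7 genes, of which 4 were higher with a median of 3.68. Their summed log2 signal was 7.93 to 8.88 on RBC arrays, 9.07 to 11.32 on nRBC arrays and 11.59 on the heart. TCF21, a factor of epicardial progenitors, read 2.22, 4.55, 4.62 and 4.93 on RBCs and 9.97 on the heart, at least 50.8-fold, and ALDH1A2, which makes retinoic acid, was higher by 30.1-fold (Present on 2 RBC arrays). TBX18 lay at 4.51 on the heart inside the RBC range of 4.34 to 5.21, and WT1 was not analysed here. Secreted signals of the developing heart counted 20 of 34 higher (58.8%), with a median of 3.44. DKK3, a Dickkopf-family protein, read 0.95, 2.99, 1.67 and 0.50 on RBCs and 12.07 on the heart, at least 579-fold. BMP10, a growth factor of trabecular muscle, read 2.15, 3.67, 4.66 and 5.54 on RBCs and 10.43 on the heart, at least 72.8-fold. IGFBP7 (at least 265-fold), pleiotrophin PTN (at least 178-fold), FRZB (at least 99.6-fold) and SFRP2 (at least 98.0-fold), the last 2 Wnt-binding proteins, and TGFB3 (41.2-fold) and TGFB2 (18.4-fold), signals of cushion formation Present on 2 RBC arrays each, were further members.

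**Figure D3:**
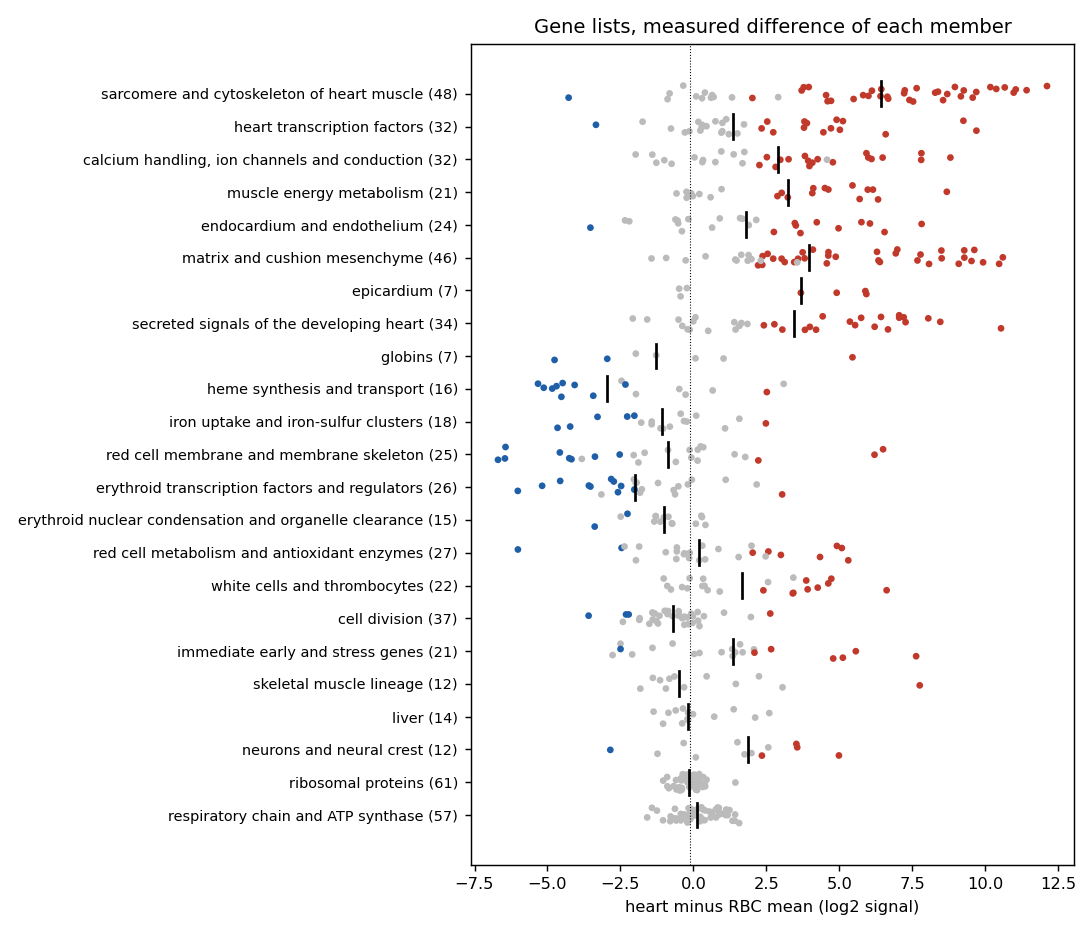
Every point is 1 gene of a list, placed by its measured difference (heart minus RBC mean, log2 signal), with red for called higher, blue for called lower and grey for not called. Black bars are list medians, the dotted line is the median of all genes (-0.13), and the number of measured genes stands after each name. The 8 heart lists have medians between 1.36 and 6.43, and ribosomal and respiratory chain genes lie between -1.58 and 1.57.

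The erythroid side began with the globins, whose probe sets differed widely in their readings. HBZ, the embryonic alpha-type pi globin, read 13.38, 13.41, 13.44 and 13.38 on RBCs and 8.64 on the heart, 27.0-fold lower. HBBR, the embryonic beta-type rho globin, read 13.25, 13.20, 13.35 and 13.22 on RBCs and 10.30 on the heart, 7.73-fold lower. HBE, a beta-type globin of the embryo, read 13.18, 13.11, 13.36 and 12.94 on RBCs and 11.18 on the heart, a difference of -1.97 that just missed the size for a call and passed it, at -2.04, without E6 RBC replicate 2. Without normalization (-2.02), with quantile normalization over the 5 arrays (-2.04), with median scaling (-2.22) and on the series matrix values (-2.29) HBE was called lower.

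The alpha-D globin gene HBAD was called lower by one probe set, at 9.53 on the heart and 13.45 ± 0.07 on RBCs (15.1-fold, SD, n = 4), and not by the set chosen for the lists, at 11.82 against 13.09 ± 0.18 (SD, n = 4). HBA1, the alpha-A globin gene, read 12.99, 12.88, 13.24 and 12.79 on RBCs and 13.05 on the heart with the chosen set, and 12.02 on the heart against 13.14 ± 0.14 (SD, n = 4) with another. A probe set annotated to both HBBR and HBBA read 12.89 on the heart and 13.25 ± 0.14 on RBCs (SD, n = 4). Each of the globin sets above was Present on the heart, and their differences ran from 0.07 to -4.76. Among all probe sets, the chosen HBA1 set ranked 46 on the heart and no lower than 81 on any RBC array. Whether signals so near the top of the scale follow RNA amounts was not tested, for these or other bright genes. A set annotated to both HBE1 and HBBA was lower in heart by 6.14-fold, with 10.96 and 9.80 on E4 RBCs, 13.29 and 13.28 on E6 RBCs and 9.21 on the heart. A further set each of HBA1 and HBAD was dim on RBCs, with means of 0.66 and 3.13, and not called.

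The list of heme genes held the largest share of lower members among the lists. It also holds 3 genes of heme breakdown, HMOX1, HMOX2 and BLVRA. Of 16 measured genes of heme synthesis and transport, 9 were lower in heart (56.2%, against 3.12% of all genes). In this list 1 was higher and 6 were not called, with a median difference of -2.95. On all 4 RBC arrays 12 of the 16 were Present, which a lower call requires. Ferrochelatase (FECH), which puts iron into the porphyrin ring, read 10.93, 11.22, 11.50 and 11.03 on RBCs and 5.85 on the heart, 40.0-fold lower. UROD, the decarboxylase of uroporphyrinogen, read 12.64, 12.53, 12.30 and 12.31 on RBCs and 7.32 on the heart, 34.9-fold lower. UROS, which closes the ring, read 11.22, 11.35, 11.53 and 11.80 on RBCs and 6.79 on the heart, 25.8-fold lower. Every one of these RBC values lay more than 4 log2 units above the heart.

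CPOX, the next enzyme of the pathway after UROD, was at 13.17 ± 0.12 on RBCs (SD, n = 4) and 9.74 on the heart, 10.8-fold lower. The mitochondrial transporter ABCB10 (23.0-fold), the glycine carrier SLC25A38 (22.3-fold), the heme-binding HEBP1 (16.8-fold), TMEM14C (5.02-fold) and biliverdin reductase BLVRA of heme breakdown (at least 28.6-fold) were lower as well. ALAD, which makes porphobilinogen, was Present on the heart and on 1 RBC array and was not called, at 6.92 against 6.80 to 7.86. The entry ALAS1, for the synthase of the first step, was the higher one, at 7.38, 6.74, 7.95 and 7.84 on RBCs and 10.00 on the heart (5.72-fold). In the gene table used here its synonyms include the erythroid form, so that this 1 probe set does not part the housekeeping from the erythroid enzyme by its name.

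Iron handling followed with 5 of 18 genes lower (27.8%) and 1 higher, and a median of -1.08. Mitoferrin 1 (SLC25A37), which carries iron into mitochondria of erythroid cells, read 13.21, 13.06, 13.22 and 13.17 on RBCs and 8.51 on the heart, 25.2-fold lower. Its relative SLC25A28, mitoferrin 2 of other tissues, read 4.87 on the heart and 4.69 to 5.70 on RBCs. The transferrin receptor TFRC read 13.12, 13.01, 12.76 and 12.76 on RBCs and 9.63 on the heart, 9.74-fold lower. The ferrireductase STEAP3 (18.7-fold), ISCA1 (4.81-fold, a difference of -1.91 and no call against the E4 RBC arrays alone) and the ferritin receptor NCOA4 (4.06-fold) were lower too, and NCOA4 lost its call without E6 RBC replicate 1 (-1.88) or replicate 2 (-1.95). ACO1, the iron-responsive aconitase, was higher by 5.60-fold, with E4 RBCs (7.60 and 7.88) nearer the heart (9.30) than E6 RBCs (6.46 and 5.31), and its difference was 1.98 without E6 RBC replicate 2, short of a call. Ferritin heavy chain FTH1 was 12.84 on the heart and 13.65 ± 0.09 on RBCs (SD, n = 4), uncalled.

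The red cell membrane gave several of the farthest lower values. Of 25 genes of the membrane and its skeleton 8 were lower (32.0%), 3 higher and 14 uncalled, with a median of -0.87. Protein 4.2 (EPB42) read 12.57, 12.30, 12.95 and 12.46 on RBCs and 5.88 on the heart, 104-fold lower. Band 3 (SLC4A1), which exchanges bicarbonate and chloride, read 12.25, 12.62, 12.61 and 12.88 on RBCs and 6.13 on the heart, 87.9-fold lower. TUBB1, the beta-tubulin of the marginal band that encircles nucleated red cells and thrombocytes, read 12.45, 11.96, 12.81 and 12.60 on RBCs and 6.02 on the heart, 86.6-fold lower. These 3 genes were Present on the heart too, and their RBC arrays spread over less than 1 log2 unit.

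Ankyrin ANK1 read 10.91, 10.90, 11.88 and 11.95 on RBCs and 6.84 on the heart, 23.8-fold lower by 1 of its 7 probe sets. Erythroid beta-spectrin SPTB was called by 1 of 5 probe sets, at 8.29, 8.49, 8.23 and 9.58 on RBCs and 4.47, Absent, on the heart, at least 18.1-fold lower. The blood group protein KEL was lower by at least 19.1-fold, RHCE by 10.4-fold and protein 4.1 (EPB41) by 5.76-fold. RHAG, the Rh-associated ammonium channel, divided the RBC arrays, with 6.75 and 4.48 at E4 and 11.45 and 11.29 at E6 against 4.67, Absent, on the heart. It was not called, since E4 replicate 2 was Absent and lay below the heart, and without that array it was lower by 5.16 on the log2 scale. SPTAN1, a spectrin of many tissues, read 10.87 on the heart and 11.48 ± 0.43 on RBCs (SD, n = 4). The water channel AQP1 was higher in heart by at least 41.5-fold.

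Regulators of the erythroid lineage came with 10 of 26 lower (38.5%), KLF13 higher and a median of -1.99. GFI1B, a repressor needed for red cells and thrombocytes, read 9.60, 8.73, 8.56 and 8.37 on RBCs and 2.80, Absent, on the heart, at least 64.7-fold lower. Hemogen (HEMGN) read 11.28, 9.45, 11.66 and 11.75 on RBCs and 5.85, Absent, on the heart, at least 36.3-fold lower. LMO2, the bridging protein of the erythroid complex, read 11.70, 10.73, 11.28 and 11.72 on RBCs and 6.79 on the heart, 23.7-fold lower. TAL1, its DNA-binding partner that also acts in endothelium, read 8.25, 9.61, 9.46 and 10.05 on RBCs and 5.81 on the heart, 11.5-fold lower. The heme-sensing BACH1 (12.0-fold), IKZF1 (7.04-fold), JAK2 (at least 6.62-fold) and STAT5A (5.99-fold), the latter pair relays of cytokine receptors, were lower as well, JAK2 not with 16 added (-1.68) and STAT5A not without normalization (-1.93). At a size of 8-fold 5 of the 10 genes were called. MYB and RUNX1, factors of early blood progenitors, were Absent on all 5 arrays. BCL11A, a globin repressor in mammals, read 4.53 and 4.34 on E4 RBCs, 8.06 and 8.60 on E6 RBCs and 8.55 on the heart. It had no call, and without E6 RBC replicate 2, the array above the heart, it was higher by 2.91. BCL11A was also called higher without normalization (2.82), with median scaling (2.625), on series matrix values (2.55) and against E4 RBC arrays alone (4.12). KLF1, EPOR and NFE2 were not analysed here.

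**Figure D4:**
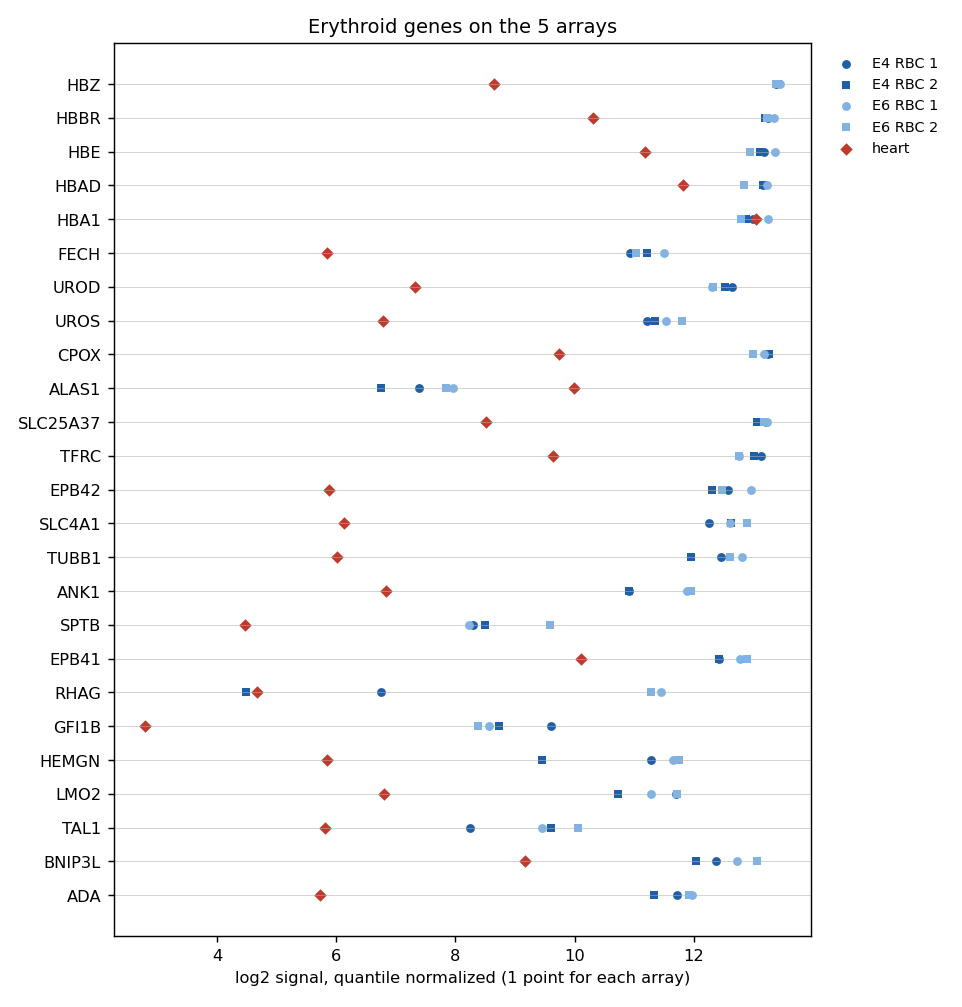
Log2 signals of 25 erythroid genes, with 1 point for each of the 4 RBC arrays (blue) and the heart (red). The heart lies to the left of all 4 RBC arrays in every row except HBA1, ALAS1 and RHAG, and the RBC points of each row spread over less than 2 log2 units except for RHAG and HEMGN. The genes were chosen with earlier results of these data known, and the erythroid lists also hold uncalled and higher members that are not drawn.

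Other functions of maturing red cells held a smaller share of lower genes than the erythroid lists above. Of 15 genes of nuclear condensation and organelle clearance, 2 were lower (13.3%) and 13 uncalled. The mitophagy receptor BNIP3L was lower by 10.4-fold (12.37, 12.04, 12.73 and 13.06 on RBCs and 9.17 on the heart). GABARAPL2 was lower by 4.78-fold, though not against the E4 RBC arrays alone (-1.89). Of 27 genes of red cell metabolism and antioxidant defence 7 were higher (25.9%), 2 lower (7.41%) and 18 uncalled, with a median of 0.21. Adenosine deaminase (ADA) read 11.72, 11.33, 11.97 and 11.92 on RBCs and 5.72 on the heart, 64.6-fold lower, and the peroxidase GPX1 was lower by 5.50-fold. The mutase BPGM, which makes the phosphoglycerate that tunes hemoglobin in mammals, was not called at a difference of -1.97 and passed without E4 RBC replicate 1 (-2.06) or replicate 2 (-2.55), its RBC arrays reading 10.81, 9.32, 12.32 and 11.85 against 9.11. Hexokinase HK1 (30.3-fold), GSTA2 (at least 28.9-fold), adenylate kinase AK1 (at least 19.8-fold), PGK2 (8.0-fold) and PKLR, the pyruvate kinase known from liver and red cells (5.94-fold, Present on 2 RBC arrays), were higher in heart.

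Over all genes, the 15 largest called differences above RBCs, with values raised to the limits where no RBC array was Present and as measured otherwise, were those of MYBPC3, TNNC1, ACTC1, FHL2, MYH15, POSTN, MYL3, CSRP3, CDH2, SVIL, CHODL, SH3BGR, DKK3, WLS and TNNT2. Supervillin (SVIL), an actin-binding membrane protein, was higher by 646-fold (4.90 and 4.25 on E4 RBCs, both Present, and 3.40 and -1.04 on E6 RBCs, both Absent), CHODL by at least 623-fold, SH3BGR by at least 613-fold and WLS, which escorts Wnt proteins to the cell surface, by 559-fold (Present on 1 RBC array). The fold of SVIL was 261 without E6 RBC replicate 2 and 1031 without E4 RBC replicate 1. By measured difference MYH7 (10.67) and IRX4 (9.70) lay above POSTN (9.53), SVIL (9.34), WLS (9.13) and TNNT2 (8.96), so the order depends on the limits. The 15 largest below RBCs were MCOLN2, SLC39A8, PLS1, EPB42, DRC7, LGALSL2, SLC4A1, TUBB1, LOC424577, SLC30A10, RFESD, MYBPC2, GLRX, GFI1B and ADA. MCOLN2, a cation channel of endosomes and lysosomes, read 9.85, 9.57, 10.07 and 9.92 on RBCs and 1.87, Absent, on the heart, at least 232-fold lower. The metal importer SLC39A8 read 12.14, 11.46, 11.81 and 10.71 on RBCs and 4.44 on the heart, 136-fold lower. The actin-bundling PLS1 was lower by at least 119-fold, and SLC30A10, a manganese and zinc exporter, read 10.30, 10.09, 10.46 and 10.28 on RBCs and 4.20, Absent, on the heart, at least 67.8-fold lower. Glutaredoxin (GLRX) read 9.31 and 8.05 at E4 and 10.68 and 11.34 at E6 against 3.80, Absent, on the heart, at least 65.9-fold lower (99.9-fold without E4 RBC replicate 2).

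Members of several gene families stood on opposite sides, and in others 1 member was called and another was not. The families of KLF, TUBB and MYB genes were listed by a rule that sought paralogs with 1 member called higher and 1 lower. The others in the next sentences were chosen after their values were seen. Opposite calls were thus a ground of the choice, and the share of all families that split was not counted. Beta-spectrins gave SPTBN1, the general form, higher in heart by 73.9-fold (5.63, 6.87, 5.59 and 4.64 on RBCs and 11.89 on the heart), beside SPTB at least 18.1-fold lower. Ankyrins gave ANK3 higher by at least 171-fold and ANK2 by at least 16.9-fold, beside ANK1 lower by 23.8-fold. Beta-tubulins gave TUBB6 (at least 84.9-fold), TUBB2A (at least 35.3-fold) and TUBB2B (20.3-fold, Present on 3 RBC arrays) higher, TUBB1 lower by 86.6-fold, and TUBB4B uncalled at 10.98 against 11.03 ± 0.71 (SD, n = 4). In each of these 3 families the erythroid member was lower in heart and at least 1 other member higher.

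Myosin-binding protein C also had opposite calls, here between 2 muscle forms, with MYBPC3 at least 1586-fold higher. MYBPC2, known from fast skeletal muscle, read 9.34, 10.66, 8.95 and 9.69 on RBCs and 3.60, Absent, on the heart, at least 66.5-fold lower. The tropomodulins cap actin filaments. TMOD4 was lower by at least 30.0-fold and TMOD1, the cap of red cell and heart filaments, higher by 4.68-fold (Present on 2 RBC arrays). TMOD1 was uncalled without E4 RBC replicate 1 (1.94) and against the E6 RBC arrays alone (1.61). Carbonic anhydrase CA13 was lower by 37.6-fold and CA9 higher by at least 160-fold. Glutathione transferase GSTA4 was lower by at least 34.0-fold, against GSTA2 higher. Krüppel-like factors gave KLF15 (27.2-fold, and 14.8-fold without E6 RBC replicate 2), KLF2 (at least 20.5-fold) and KLF13 (8.24-fold, and 5.45-fold without E4 RBC replicate 2) higher and KLF3 lower by 5.56-fold, with KLF15 and KLF13 Present on 1 RBC array each. MYBL1 and MYBL2, the relatives of MYB, were lower by 4.13-fold and 5.0-fold, the first uncalled without E4 RBC replicate 1 (-1.95) or replicate 2 (-1.96). Neither passed without normalization (-1.36 and -1.65), with median scaling (-1.55 and -1.84), on the series matrix values (-1.63 and -1.92) or against the E6 RBC arrays alone (-1.78 and -1.74). Translation factor EEF1A2 was higher by at least 469-fold while EEF1A1 read 13.32 on the heart and 13.15 ± 0.03 on RBCs (SD, n = 4). TSPO2, known from erythroid cells of mammals, was lower by 46.9-fold, and TSPO was uncalled at 9.22 against 9.47 ± 0.16 (SD, n = 4).

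**Figure D5:**
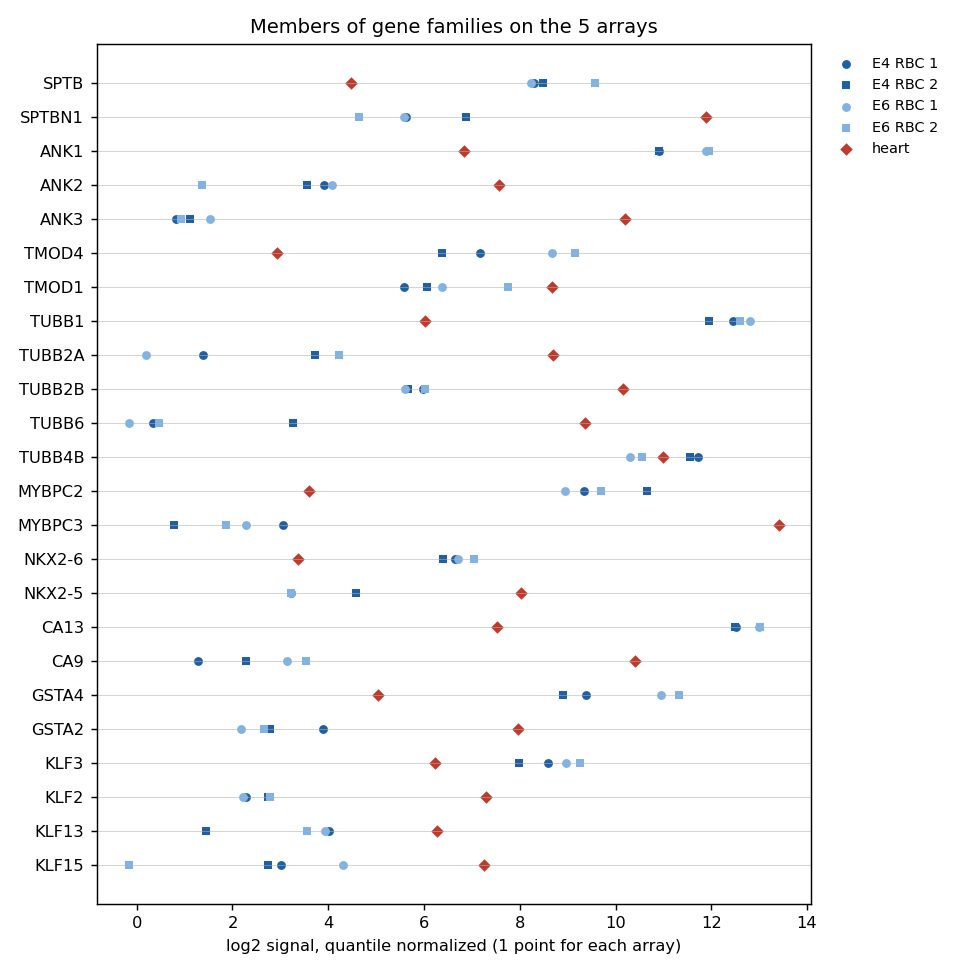
Log2 signals of 24 genes of 9 families (spectrin, ankyrin, tropomodulin, beta-tubulin, myosin-binding protein C, NKX2, carbonic anhydrase, glutathione transferase and Krüppel-like factor genes, top to bottom), with 1 point for each RBC array (blue) and the heart (red). Within each family the heart lies left of the RBC arrays for at least 1 member and right of them for at least 1 other, and TUBB4B falls among them. The families were chosen with these values known.

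Cells other than muscle and red cells were looked for by their markers. Of 22 genes of white cells and thrombocytes 9 were higher in heart (40.9%), none lower, with a summed log2 signal of 8.66 to 9.36 on RBC arrays, 10.67 on the heart and 13.67 to 14.40 on nRBC arrays. The scavenger receptor CD36, also made by endothelium and muscle, was higher by at least 33.8-fold, the kinase SYK by 19.2-fold (at least 8.34-fold without E4 RBC replicate 2, the Present array), VAV3 by at least 18.2-fold, LYN by 15.1-fold (Present on 1 RBC array, and 9.12-fold without E6 RBC replicate 1) and LCP1 by at least 13.6-fold. Of the thrombocyte genes, F13A1 (at least 5.59-fold), ITGB3 (at least 5.28-fold) and RGS18 (at least 4.56-fold) were higher, and RGS18 lost its call without E6 RBC replicate 2, at 1.99. With 16 added to the signals none of these 3 passed (1.36, 1.99 and 1.09), nor did SYK (1.98). The leukocyte antigen PTPRC was Absent on all 5 arrays by the chosen probe set, and another of its 3 sets was Present on the heart at 4.88 and on no RBC array (2.49 ± 1.17, SD, n = 4), uncalled. SPI1 and CSF1R, of myeloid cells, lay at 5.54 and 5.95 on the heart within the RBC ranges of 4.09 to 6.16 and 5.54 to 6.81. On RBCs, 14 of the 22 genes had no Present call. The part of white cells and thrombocytes in the heart values was not tested.

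Skeletal muscle was represented by 12 genes, of which TNNC2, a troponin of fast fibres, was higher by at least 149-fold, while MYOD1, MYF5 and MYOG were Absent on all 5 arrays. Summed log2 signals of this list were 6.81 to 8.06 on RBC arrays and 10.30 on the heart, where TNNC2 alone read 10.00. The median difference of the list was -0.48. Of 14 liver genes none was called, ALB read 4.04 on the heart inside 2.96 to 4.83 on RBCs, TTR and AHSG were Absent on the 5 arrays, FGB was Present on the heart and on no RBC array, and transferrin TF, Present on all 5 arrays, read 10.76 against 10.94 ± 0.26 (SD, n = 4). With TF among them, the summed signals were 10.98 on the heart and 11.18 to 11.29 on RBCs. Of 12 genes of neurons and neural crest, TH (at least 26.8-fold), NEFM (at least 11.4-fold, and 7.45-fold without E6 RBC replicate 2), SNAP25 (at least 9.38-fold) and SOX10 (at least 4.43-fold) were higher and NEFL, a light neurofilament, was lower by 7.19-fold. SOX10 lost its call without E4 RBC replicate 1 (1.83) or E6 RBC replicate 2 (1.92), and the probe set of SNAP25 with the most Present calls read -0.46. STMN2 and ELAVL4 were Present on the heart and on no RBC array and were not called, with summed signals of the list at 9.69 on the heart and 8.49 to 8.99 on RBCs.

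Division and stress genes were the last groups. Of 37 cell division genes 33 were uncalled, with a median of -0.71. E2F1, an S-phase factor, read 12.01, 12.21, 11.65 and 12.50 on RBCs and 8.50 on the heart, 12.0-fold lower. GMNN was lower by 4.95-fold and MKI67 by 4.65-fold. MKI67 fell short of a call without E4 RBC replicate 2 (-1.95) and against the E6 RBC arrays alone (-1.83). CCNE1 was higher by at least 4.41-fold and lost its call without E4 or E6 RBC replicate 1 (1.94 and 1.93) and against the E4 RBC arrays alone (1.65). Of 21 immediate early and stress genes, the chaperone HSPB1 (10.21 against 2.58 ± 1.21, SD, n = 4, at least 122-fold), EGR1 (at least 39.4-fold), KLF2, DUSP6 (at least 11.8-fold), JUN (at least 6.34-fold) and DUSP1 were higher, BTG2 was lower by 5.64-fold, and the median was 1.35.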

How the data were processed

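Chick RNA was amplified in 2 cycles and hybridized by the authors to Affymetrix chicken arrays. The authors deposited MAS5 signals, a linear intensity not scaled between arrays, with a Present, Marginal or Absent call. No software version for MAS5 was named in the methods or labels read. The deposited series matrix holds log2 signal minus each array's mean (largest deviation 1.23e-06, column medians -0.25 to -0.13). All 9 columns of the table were matched to samples.

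Of 38535 probe sets, 96 controls were left out. Signals of 0 (8 on the 5 arrays) were set to 0.1, and log2 signals were quantile normalized over 9 arrays, after the authors' methods. By the platform's annotation 27168 probe sets carry 1 symbol, 177 several and 11094 no symbol, and 26853 were found in the RefSeq gene table of assembly GRCg7b. Per gene, the probe set with the highest mean of heart and RBC was read. Lowest Present log2 signals, used as limits, were 2.35 to 3.13 on RBC arrays and 2.00 on the heart. Array number limits the precision. RBC SDs are over 4 arrays, 2 of each stage, and so hold differences between stages as well as between pools. Only the 2 E6 RBC arrays share the labelled stage of the heart. The call rule was run on simulated arrays with shifts past the call size in bright probe sets only. That setting does not cover calls against dim or Absent values.

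The comparison, the 23 gene lists and the rule for names (up to 8 members per list with the largest called differences, defining markers, the 15 largest in each direction, GATA, globin, KLF, TUBB, MYB and related genes) were chosen with earlier results of these data known, and further genes are named from the lists after their values were seen. Alternatives were other normalizations, offsets, limits, call sizes, probe sets and RBC arrays. Python 3.11.15, numpy 2.4.6 and pandas 2.3.3 were used.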

Additional observations from a re-analysis of the deposited data

Results flagged for a closer look

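Of 240 named genes, 12 had 1 RBC array far from the other 3 by Dixon's criterion for 4 values, which is the 1 group in 20 that chance gives. The gap over range was 0.838 for MYL4 (E4 replicate 1, 2.61), 0.864 for SMYD1 (E4 replicate 2, 6.76), 0.995 for NKX2-5 (E4 replicate 2, 4.57), 0.962 for LDHA (E4 replicate 2, 0.93) and 0.877 for KDR (E4 replicate 1, 3.51). It was 0.866 for POSTN (E4 replicate 2, 0.87), 0.858 for TCF21 (E4 replicate 1, 2.22), 0.848 for TBX18 (E4 replicate 1, 4.34) and 0.847 for SFRP2 (E4 replicate 1, 1.38). It was 0.890 for MYF5 (E6 replicate 1, 5.86), 0.841 for EGR1 (E6 replicate 1, 2.04) and 0.851 for HSPB1 (E6 replicate 2, 4.38). Present on at least 1 RBC array were LDHA, POSTN, SMYD1 and TBX18.

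For 6 genes both E4 RBC arrays lay on one side of the heart and both E6 RBC arrays on the other, a difference between stages that was not tested. Heart minus E4 RBC and heart minus E6 RBC were -1.24 and 1.53 for CA2, -0.48 and 1.16 for PTPRC, -0.28 and 1.0 for TOP2A, -0.36 and 0.34 for CDK1, -0.25 and 3.01 for FGB, and -0.65 and 0.56 for TUBB4B. PTPRC was Absent on all 5 arrays, and FGB on the 4 RBC arrays.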

How the results depend on the processing

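Counts of probe sets were 2872 higher and 734 lower in heart, and counts of genes 1430 and 406. Without normalization 422 probe sets and 231 genes were lower. With 16 added before log2, 1747 probe sets were higher. With no Present call needed, 2347 probe sets and 798 genes were lower. At 8-fold, 1628 probe sets and 851 genes were higher and 297 and 160 lower, and at 2-fold 4714 and 2271 were higher and 2159 and 1241 lower. The share of called probe sets that were higher, 79.6%, became 89.7% without normalization, 56.8% with no Present call needed and 68.6% at 2-fold, and the median difference of all probe sets moved from -0.22 to 0.09 without normalization and to -0.11 with median scaling. Leaving out 1 RBC array gave 2743 to 2987 probe sets higher and 726 to 865 lower, and 1388 to 1471 genes higher and 409 to 464 lower. Of the 184 called genes that are named, 151 to 184 kept their call at each setting of normalization, size and arrays, and over 18 settings the sign turned for TBX5 (-0.57) and SNAP25 (-0.46), on the probe set with the most Present calls. Of 16 list counts of 4 or more, 5 moved by over 1.5 times. White cell and thrombocyte genes higher fell from 9 to 4 with 16 added and to 5 at 8-fold. Iron genes lower fell from 5 to 3 against E4 RBC arrays alone and at 8-fold and rose to 9 at 2-fold. Neuron genes higher fell from 4 to 2 with 16 added and rose to 7 at 2-fold, and at 8-fold erythroid regulators lower fell from 10 to 5 and red cell metabolism genes higher from 7 to 4. With 16 added, 17 named genes lost their calls (HAND2, MYOCD, PLN, CASQ2, KCNJ2, BNC1, TMOD1, JAK2, KLF13, F13A1, ITGB3, RGS18, SYK, SNAP25, SOX10, CCNE1 and MYBL1), and without normalization 7 did (STAT5A, KLF3, GABARAPL2, GMNN, MKI67, MYBL1 and MYBL2). Restricting RBCs to the arrays with many signals under 1, chosen after seeing the data, gave 2718 higher and 985 lower, and to those with few 3157 and 776. No paired analysis was possible because the heart is 1 array and no label ties it to an RBC pool. The heart value of each gene rests on that array, and dim signals near the limits bound most of the higher folds.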
